A study of Mus musculus with 2 samples.

Results

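The 9 guanylate binding protein genes of the mouse listed by the symbols Gbp2, Gbp2b, Gbp3, Gbp4, Gbp5, Gbp6, Gbp7, Gbp8 and Gbp9 were described across every gated class of leukocytes from B16-F10 tumors. They were found by symbol, and each matched 1 of the 32285 genes counted. The genes were selected on their UMI levels in the DOPAC and Control libraries, which were known from an earlier look at these data, so that levels and differences are a description and no test is given on them. B16-F10 is a mouse melanoma line, and CD45, the surface mark of leukocytes, was used to sort the cells. The DOPAC library came from WT mice treated with DOPAC, the dopamine metabolite dihydroxyphenylacetic acid, and the Control library from vehicle-treated WT mice. Both groups carried the tumor; no strain, age, dose or time of treatment was used here.

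Each group was 1 library, although the design gives 4 mice per group, and no tag assigns cells to mice. The difference between the libraries therefore has no replicate check, and every interval below is a 95% interval for counting error only. After quality control and doublet removal the DOPAC library held 9280 cells with a median of 3592 UMIs (unique molecular identifiers, each marking 1 captured transcript) and the Control library 8105 cells with a median of 9320 UMIs. Of all barcodes, 32 were shared by the libraries. The protocol text of the labels speaks of colon tissue and the cell type label of lymphocytes, whereas the tissue label names tumor. Myeloid, lymphoid and a few melanoma cells were all found. Classes were gated by UMIs of marker genes, and check markers were at least 3-fold above the median class in every set except 1 of 4 in DOPAC cDC1 (Irf8) and in pDC of both libraries (Irf7), and 3 of 4 in the 7 DOPAC gamma delta T cells. The check markers of CD8 T cells, Cd8a and Cd8b1, and Ms4a7 of macrophages were also used in gating, so they give no separate check. With these gates 2190 DOPAC and 526 Control cells had no lineage, and 2371 DOPAC and 1920 Control cells had mixed lineages.

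Guanylate binding proteins are large GTPases of the dynamin superfamily that interferons, above all interferon gamma, switch on in many cell types. Interferon gamma acts through its receptor and the kinases Jak1 and Jak2, and genes that it induces can carry gamma-activated sites, while interferon regulatory factors such as Irf1 bind interferon-stimulated response elements. The proteins gather on vacuoles and membranes of invading microbes, where they act with the immunity-related GTPases and promote inflammasome activation. In tumors their transcripts are used as a readout of interferon in leukocytes.

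The genes lie in 2 clusters of the GRCm38 genome (GENCODE M21 annotation). The cluster on chromosome 3, on the plus strand, runs from Gbp5 (chr3:142493978-142522344) over Gbp7 (chr3:142530342-142550149), Gbp3 (chr3:142560026-142573209) and Gbp2b (chr3:142594847-142619179) to Gbp2 (chr3:142620602-142638008). The cluster on chromosome 5, on the minus strand, holds Gbp8 (chr5:105014150-105139540), Gbp9 (chr5:105077630-105139539), Gbp4 (chr5:105115767-105139586) and Gbp6 (chr5:105270702-105293698). Gbp4, Gbp8 and Gbp9 overlap one another on the same strand, so that reads of the shared part could be split or dropped. Gbp6 has a near-identical neighbour, Gbp10, which does not overlap it, and reads alike in both could also be split or dropped. The values of Gbp6 and Gbp10 are therefore uncertain, and the size of this effect was not tested.

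RefSeq promoters (GRCm38.p6, from 250 bases before the start) were supplied for the 5 genes of the chromosome 3 cluster, in 6 windows, and not for Gbp4, Gbp6, Gbp8 and Gbp9. They were searched on both strands for GAAA, 2 letters of any kind and GAAA, the core of an interferon-stimulated response element, and for TTC, 3 letters of any kind and GAA, those of a gamma-activated site. The response element letters were found in 5 of the 6 windows, against 2.98% of 32851 promoters, and the gamma-activated letters in 2 of the 6, against 7.02%. The search fixes all but 2 letters of a match, so the likeness of the matches follows from the search. The matches below lie in the cluster whose transcripts are described next. Each is given on the plus strand, 5′ to 3′, with the match in capitals, which reads as the response element on the opposite strand.
Gbp2, chr3:142620594-142620623, match 59 bases before the start: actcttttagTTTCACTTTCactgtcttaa
Gbp2b, chr3:142594700-142594729, match 137 bases before the start: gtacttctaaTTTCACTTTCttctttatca
Gbp3, chr3:142559989-142560018, match 45 bases before the start: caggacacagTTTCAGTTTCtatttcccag
Gbp5, chr3:142496759-142496788, match 165 bases before the start: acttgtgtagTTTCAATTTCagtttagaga
Gbp7, chr3:142530273-142530302, match 53 bases before the start: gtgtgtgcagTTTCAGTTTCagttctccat
The letters left free by the search are the same in Gbp2 and Gbp2b, and in the matches shown for Gbp3 and Gbp7. Gbp3 has a further match with other free letters, 39 bases before the start, which is not shown. The window without a match is also one of Gbp3. The gamma-activated letters, which read alike on both strands, were found in Gbp5 and Gbp7, for example in Gbp7 at 87 bases before the start.
Gbp7, chr3:142530239-142530268, gamma-activated letters in capitals: aagcagaagcTTCTCAGAAagtcagcacaa
A match is a description of the letters and not a site shown to be bound. RefSeq starts of Gbp2, Gbp3, Gbp5 and Gbp7 differ from the GENCODE gene starts above. That of Gbp5, at 142496934, lies inside the GENCODE gene, which starts at 142493978, so the Gbp5 window does too. That of Gbp2, at 142620663, also lies inside the GENCODE gene, which starts at 142620602. The Gbp2 match, at 142620604-142620613, is thus inside that gene as well. Both RefSeq starts of Gbp3, at 142560044 and 142560356, lie inside the GENCODE gene, and its matches lie before the GENCODE start at 142560026.

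The summed transcripts of the 9 genes were highest in myeloid classes of both libraries and lowest in B and melanoma cells of Control. CPM below are UMIs of a gene per 1000000 UMIs of all genes, summed over the cells of a class in a library. In the DOPAC library the sum was 1660 CPM in neutrophils (1301 to 2088, 30 cells), 1592 CPM in Cxcl9+ macrophages (1528 to 1658), 1377 CPM in nonclassical monocytes (1237 to 1529) and 1267 CPM in classical monocytes (1226 to 1310). Each of the first 3 overlapped the next within its counting interval, and the classical monocytes stood apart from the class after them. In the Control library Cxcl9+ macrophages led with 1088 CPM (1042 to 1136), apart from nonclassical monocytes at 675 CPM and classical monocytes at 673 CPM, which overlapped. The lower end of the DOPAC order was cycling CD8 T cells at 250 CPM (237 to 263), and that of the Control order was B cells at 78 CPM (67.9 to 89.2) and melanoma cells at 51.6 CPM (41.6 to 63.3). Neutrophils showed the widest gap between libraries in this order, being first in DOPAC and at 115 CPM in Control (80.7 to 158), but they were counted from 73 UMIs in 30 DOPAC cells and 37 UMIs in 102 Control cells. Gbp2, the 1 member with enough UMIs in neutrophils, was at least 1.5-fold higher in DOPAC, as were 22.1% of genes, and 31.6% were lower.

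**Figure D1:**
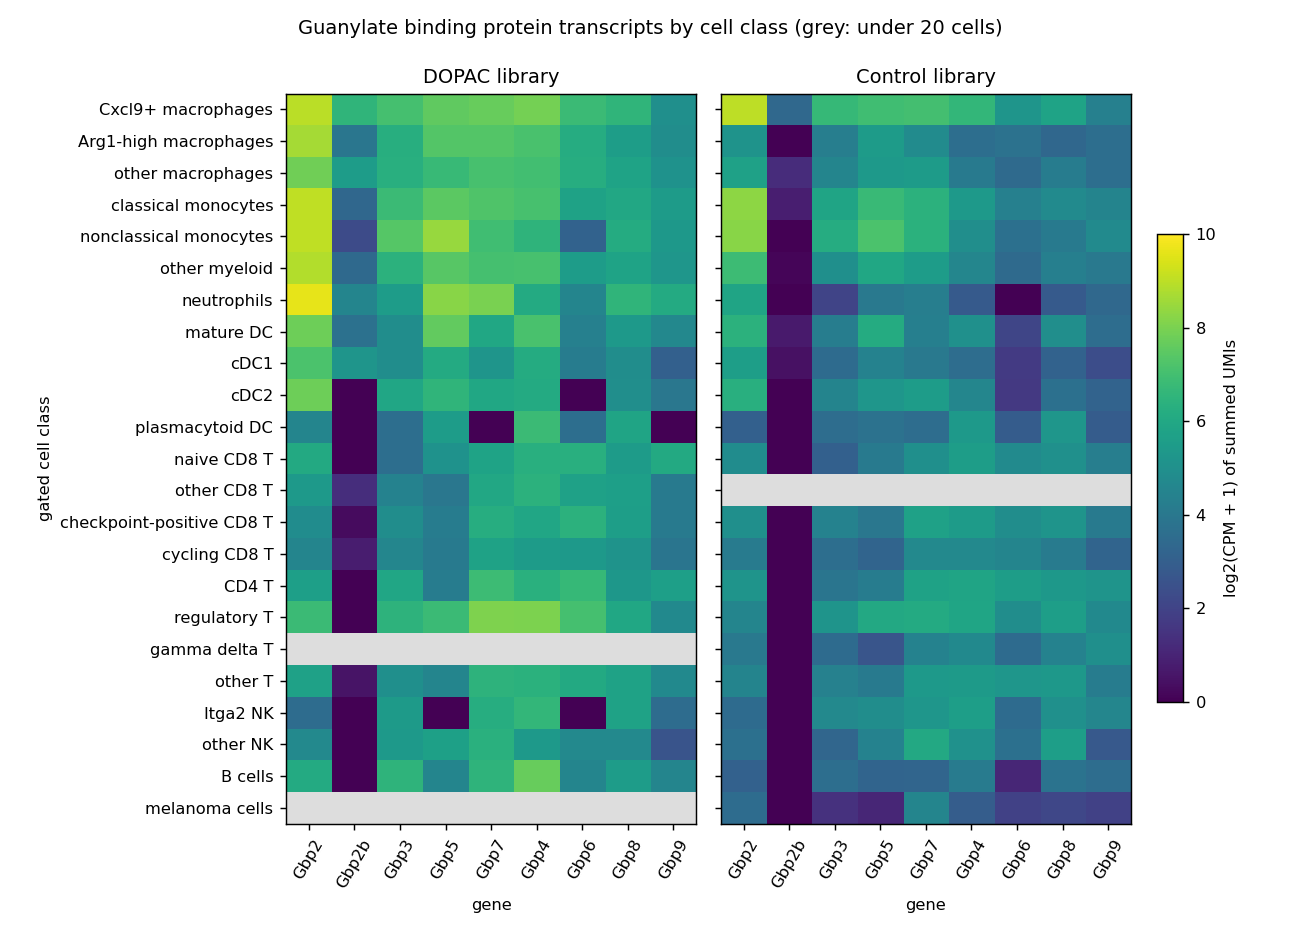
Level of each of the 9 genes, as log2(CPM + 1) of the UMIs summed over the cells of a class (rows), in the DOPAC library (left) and the Control library (right); grey rows had under 20 cells. Gbp2 is brightest in the myeloid rows, Gbp2b is dark in nearly every row but the DOPAC macrophages and cDC1, and most myeloid cells of the map are brighter in DOPAC than in Control.

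Macrophages (466 DOPAC and 1188 Control cells) had the largest difference among the 5 broad groups compared. All 9 genes were at least 1.5-fold higher in DOPAC, where 14% of 12426 genes were, and 0 were lower, against 21.3%. The sum was 1292 CPM in DOPAC and 296 CPM in Control macrophages, 4.36-fold (4.19 to 4.54). Of the chromosome 3 genes, Gbp2, which coats vacuoles of microbes in mice, was the most abundant, with 390 CPM in DOPAC and 94.9 CPM in Control, 4.11-fold (3.82 to 4.43). Gbp2b, also called Gbp1 in the mouse, had 65.6 CPM in DOPAC and 1.96 CPM in Control (186 and 41 UMIs), 33.5-fold (23.8 to 48.2). It was thus a gene with almost no transcripts in Control macrophages. Gbp5, which promotes NLRP3 inflammasome assembly in mice, had 159 CPM in DOPAC and 49.6 CPM in Control, 3.2-fold (2.86 to 3.58). Gbp7, which supports oxidase assembly on phagosomes in mice, had 175 CPM in DOPAC and 50.8 CPM in Control, 3.46-fold (3.1 to 3.85). Gbp3, their neighbour in the cluster, had 106 CPM in DOPAC and 30.3 CPM in Control, 3.5-fold (3.04 to 4.02). Apart from Gbp2b the cluster thus lay within a narrow band of folds.

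The chromosome 5 genes differed more among themselves than the chromosome 3 genes other than Gbp2b. Gbp4 had 193 CPM in DOPAC and 23.8 CPM in Control macrophages, 8.12-fold (7.18 to 9.18). Gbp6 had 97.4 CPM in DOPAC and 13.2 CPM in Control, 7.39-fold (6.23 to 8.76). Both stood above the interval of every chromosome 3 gene but Gbp2b. Gbp8 was 3.7-fold higher (3.12 to 4.39), with 73.4 CPM in DOPAC and 19.8 CPM in Control, and Gbp9, the least abundant of the 4, was 2.64-fold higher (2.05 to 3.37), with 31.8 CPM in DOPAC and 12 CPM in Control. DOPAC macrophages had a median of 5423.5 UMIs and Control macrophages of 15804.5. Cd3e, a T-cell gene, had a UMI in 18% of DOPAC and 6.23% of Control macrophages. The summed level in DOPAC CD8 T cells, 301 CPM, was below that of DOPAC macrophages. The part of T-cell RNA in the macrophage values was not tested. When cells were first thinned to 1000 UMIs and then gated, 145 DOPAC and 568 Control macrophages were left, and Gbp2 had a log2 ratio of 2.81, against 2.04 without thinning.

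**Figure D2:**
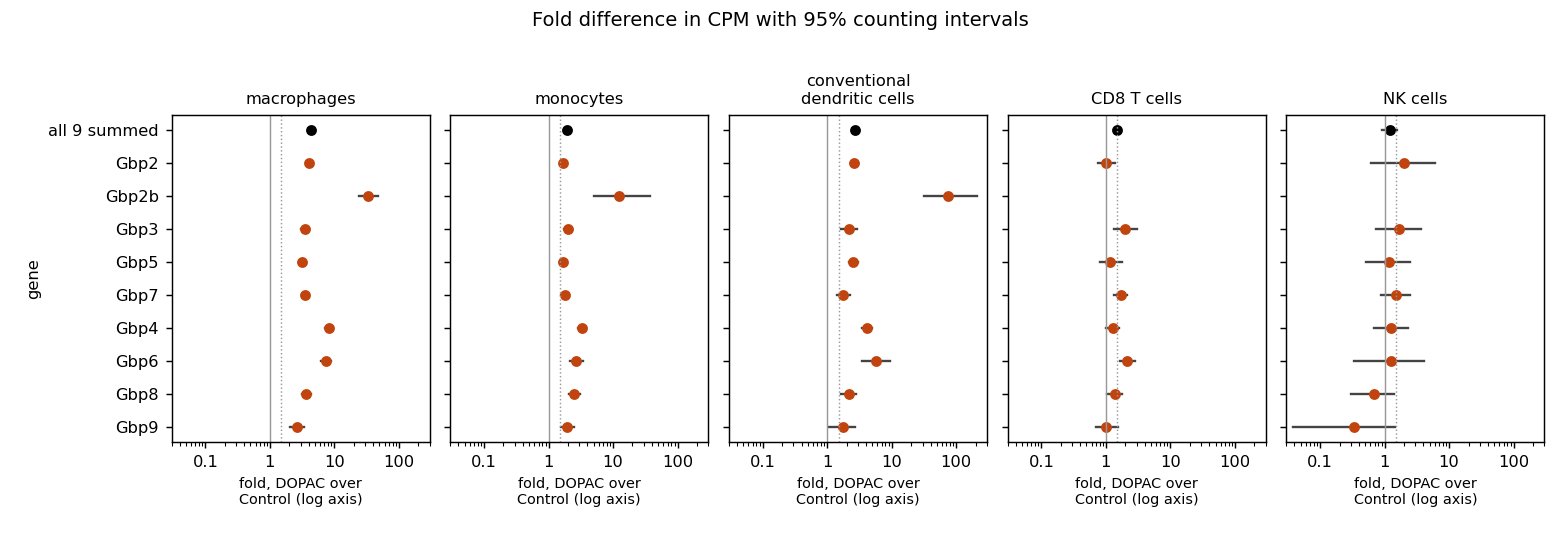
Fold difference in CPM, DOPAC over Control (log axis), for the sum (black) and each gene (orange) in 5 broad groups, with 95% counting intervals as lines; the solid line marks equal levels and the dotted line 1.5-fold, and points with too few counts for a fold are left out. Gbp2b lies farthest right in macrophages, monocytes and dendritic cells, the CD8 T cell points lie between 1.0-fold and 2.14-fold, and the NK cell points lie between 0.339-fold and 1.98-fold with intervals that all span equal levels.

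Macrophages were divided by Cxcl9, a chemokine gene that interferon gamma induces, and by Arg1, a gene of arginine breakdown. Cxcl9+ cells were 46.6% of DOPAC macrophages (42 to 51.2) and 9.26% of Control macrophages (7.67 to 11.1), and cells with neither mark were 39.9% of DOPAC and 77.3% of Control macrophages. The marks asked for at least 2 Cxcl9 or 10 Arg1 UMIs per 10000 UMIs of a cell, with no minimum count. A shallow cell thus passed with fewer UMIs, and median depth was 5423.5 UMIs in DOPAC and 15804.5 in Control macrophages. The part of depth in these shares and in the class values below was not tested. The summed level was higher in DOPAC within each of the 3 classes described next. In macrophages with neither mark the sum was 876 CPM in DOPAC and 215 CPM in Control, 4.06-fold (3.78 to 4.37), with 9 of 9 genes at least 1.5-fold higher and 0 lower, against backgrounds of 15.5% and 26.2%. Arg1-high macrophages had 1098 CPM in DOPAC and 169 CPM in Control, 6.51-fold (5.6 to 7.57), with 8 of the 8 genes counted at least 1.5-fold higher and 0 lower, against 17.8% and 26%. Gbp2b, the gene left out there, had 4 UMIs in DOPAC and 0 in Control.

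Of the macrophage classes described, only Cxcl9+ macrophages had genes counted that were not at least 1.5-fold higher in DOPAC. Gbp2 had 503 CPM in DOPAC and 519 CPM in Control (728 and 995 UMIs), a ratio of 0.969 (0.88 to 1.07). Gbp3 was also close, with 133 CPM in DOPAC and 104 CPM in Control, 1.28-fold (1.05 to 1.57). The other 7 of the 9 genes were at least 1.5-fold higher in DOPAC, where 13% of genes were, and 0 were lower, against 15.4%. Gbp2b had 92.6 CPM in DOPAC and 9.39 CPM in Control, 9.86-fold (6.01 to 17.1). Gbp6 had 111 CPM in DOPAC and 36 CPM in Control, 3.09-fold (2.32 to 4.16), and Gbp4 239 CPM in DOPAC and 96.5 CPM in Control, 2.48-fold (2.07 to 2.98). Gbp5, Gbp7, Gbp8 and Gbp9 were between 1.54-fold and 1.68-fold higher. Gbp2 thus made up 31.6% of the members' UMIs in DOPAC Cxcl9+ macrophages and 47.7% in Control ones.

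**Figure D3:**
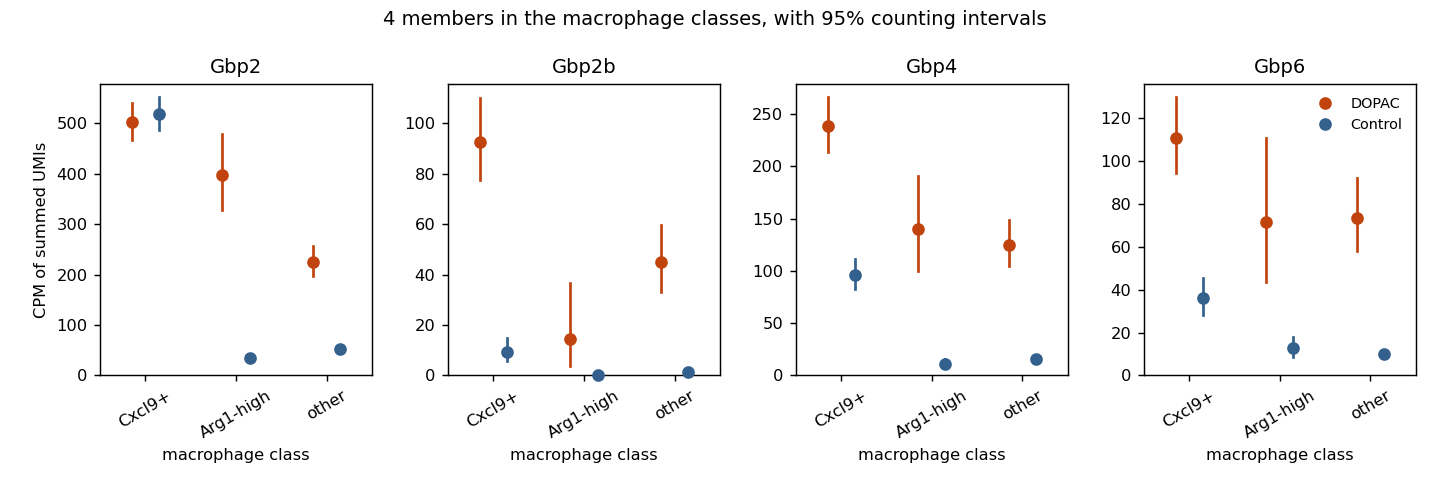
CPM of Gbp2, Gbp2b, Gbp4 and Gbp6 in 3 macrophage classes, with DOPAC (orange) left of Control (blue) and 95% counting intervals as lines. Gbp2 is at the same height in Cxcl9+ macrophages, at 503 CPM in DOPAC and 519 CPM in Control, while the other 3 genes are higher in DOPAC in each class.

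Monocytes (705 DOPAC and 740 Control cells) had high levels in both libraries and a smaller difference. The sum was 1277 CPM in DOPAC and 674 CPM in Control monocytes, 1.9-fold (1.82 to 1.97), and 9 of 9 genes were at least 1.5-fold higher, against 19% of 10979 genes, and 0 lower, against 15.3%. Gbp2 had 524 CPM in DOPAC and 310 CPM in Control, 1.69-fold (1.59 to 1.8). Gbp4 had 132 CPM in DOPAC and 39.8 CPM in Control, 3.31-fold (2.86 to 3.83). Gbp2b was a minor member, with 8.6 CPM in DOPAC and 0.686 CPM in Control (26 and 6 UMIs), 12.5-fold (5.05 to 37.3). The remaining 6 genes were 1.66-fold to 2.71-fold higher. Cd3e had a UMI in 14.5% of DOPAC and 4.32% of Control monocytes, and Ifng, the interferon gamma gene, was at 33.8 CPM in DOPAC and 3.31 CPM in Control monocytes. Ly6c2, on which the classical monocyte gate rests, is also found in T cells. With a second gate, chosen after seeing the data, that took Ly6c2 and Ccr2 out of the myeloid panel, the sum was 1464 CPM in 454 DOPAC and 664 CPM in 660 Control monocytes, 2.2-fold (2.11 to 2.31). In cells thinned to 1000 UMIs before gating, the direction of Gbp5 turned round, with a log2 ratio of -0.20, against 0.74 without thinning.

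Nonclassical monocytes, which carry Ace or Adgre4 and patrol vessels, had the highest Gbp5 level of any class in either library. It was 348 CPM in DOPAC (280 to 429) and 143 CPM in Control (122 to 166), 2.44-fold (1.86 to 3.17). These intervals overlapped those of DOPAC neutrophils at 296 CPM (157 to 506) and of Control Cxcl9+ macrophages at 120 CPM (105 to 137). Of 7 genes with enough UMIs in this class 5 were at least 1.5-fold higher, against 16.2% of genes, and 0 lower, against 24.5%. In classical monocytes 9 of 9 were higher and 0 lower, against 19.1% and 16.3%. Myeloid cells that met no subclass gate had 1122 CPM in 613 DOPAC and 321 CPM in 830 Control cells, 3.49-fold (3.31 to 3.68), with 9 of 9 genes higher and 0 lower, against 16.7% and 17.4%.

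Conventional dendritic cells had lower levels than monocytes in both libraries. The sum was 520 CPM in 290 DOPAC cells and 192 CPM in 1021 Control cells, 2.71-fold (2.53 to 2.9), and 9 of 9 genes were at least 1.5-fold higher, against 14.7% of genes, and 0 lower, against 19%. This value moved most with depth. In cells thinned to 1000 UMIs before gating, 42 DOPAC and 144 Control cells were left and the log2 ratio was 0.54, against 1.44 without thinning. The 3 subsets, cDC1 with Xcr1 and Clec9a, cDC2 with Cd209a, and mature dendritic cells with Ccr7 and Fscn1, each had a higher sum in DOPAC. It was 436 CPM in DOPAC and 120 CPM in Control cDC1, 3.64-fold (3.26 to 4.05), with 9 of 9 genes at least 1.5-fold higher and 0 lower, against 17.1% and 17.9%. In cDC2 it was 550 CPM in DOPAC and 228 CPM in Control, 2.41-fold (2.08 to 2.77), with 6 of 7 genes higher and 0 lower, against 15.4% and 28.9%. In mature dendritic cells it was 739 CPM in DOPAC and 268 CPM in Control, 2.76-fold (2.42 to 3.13), with 7 of 8 genes higher and 0 lower, against 14.6% and 31.3%.

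Gbp2b differed between the dendritic subsets of DOPAC, and in Control it had at most 3 UMIs in each subset. It had 44 UMIs in 136 DOPAC cDC1 and 3 UMIs in 370 Control cDC1, or 36.3 CPM in DOPAC and 0.382 CPM in Control, 94.8-fold (30.4 to 477). Only 10.3% of the DOPAC cDC1 had a UMI of Gbp2b, and the counting interval does not cover the spread between cells. No UMI of it was found in cDC2, in 407544 UMIs of DOPAC or 6002848 UMIs of Control, which allows up to 7.36 CPM in DOPAC and 0.5 CPM in Control. In mature dendritic cells it had 5 UMIs in DOPAC and 3 in Control. C1q genes, whose transcripts are abundant in macrophages, were at 434 CPM in DOPAC and 350 CPM in Control cDC1, and at 41.7 CPM in DOPAC and 97.5 CPM in Control cDC2. Macrophages carried 3727 CPM of C1q in DOPAC and 5622 CPM in Control. The part of macrophage RNA in the cDC1 value was not tested.

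CD8 T cells (1643 DOPAC and 249 Control cells) had a smaller difference as a pool, and the pool held different cells in each library. It had 21 naive, 860 checkpoint-positive, 590 cycling and 172 other cells in DOPAC, against 148 naive, 61 checkpoint-positive, 23 cycling and 17 other cells in Control. The pooled sum was 301 CPM in DOPAC and 206 CPM in Control CD8 T cells, 1.46-fold (1.33 to 1.62). Of 8 genes 3 were at least 1.5-fold higher, against a background of 19.7% of 11151 genes, and 0 were lower, against 22.4%. Gbp6 had 60.2 CPM in DOPAC and 28.1 CPM in Control, 2.14-fold (1.64 to 2.83). Gbp3 had 25.1 CPM in DOPAC and 12.9 CPM in Control, 1.95-fold (1.32 to 2.99), and Gbp7 62.2 CPM in DOPAC and 36.9 CPM in Control, 1.69-fold (1.34 to 2.15). Gbp2 in the pool had 26.4 CPM in DOPAC and 26.3 CPM in Control (1.0; 0.752 to 1.36). Gbp10, the close copy of Gbp6, had 46 UMIs in DOPAC and 2 in Control CD8 T cells, and 1 UMI in DOPAC and 2 in Control macrophages. Lyz2, a gene of myeloid cells, had a UMI in 33.8% of DOPAC and 79.9% of Control CD8 T cells, at 75.7 CPM in DOPAC and 202 CPM in Control. Its level was thus lower in DOPAC CD8 T cells, and the part of myeloid RNA in the T-cell values was not tested. Checkpoint-positive CD8 T cells, with Pdcd1, Havcr2 or Lag3 RNA, had 355 CPM in DOPAC and 242 CPM in Control, 1.47-fold (1.24 to 1.75). Only Gbp6 of the 8 genes counted in them was at least 1.5-fold higher, against 18.7%, and 0 were lower, against 20.7%. With the second gate, the sum was 341 CPM in 2527 DOPAC and 214 CPM in 519 Control CD8 T cells, 1.59-fold (1.49 to 1.71), and Gbp6 was 3.02-fold higher (2.46 to 3.73). This gate also left enough cells to compare within the other subclasses. In naive CD8 T cells the sum was 530 CPM in 39 DOPAC and 210 CPM in 315 Control cells, 2.53-fold (2.01 to 3.15), and Gbp2 had 71.8 CPM in DOPAC and 29 CPM in Control, 2.48-fold (1.26 to 4.5, from 13 and 74 UMIs). In cycling CD8 T cells the sum was 286 CPM in 876 DOPAC and 148 CPM in 48 Control cells, 1.93-fold (1.6 to 2.35), with Gbp2 at 1.6-fold (0.949 to 2.89). In other CD8 T cells it was 415 CPM in 306 DOPAC and 238 CPM in 36 Control cells, 1.74-fold (1.31 to 2.37), with Gbp2 at 3.44-fold (1.12 to 17.2, from 56 and 3 UMIs). In checkpoint-positive cells it was 1.49-fold (1.32 to 1.68), with Gbp2 at 1.08-fold (0.764 to 1.57). Under the second gate the sum was thus higher in DOPAC within each of the 4 subclasses. Gbp2 in the pool of this gate had 34 CPM in DOPAC and 27.4 CPM in Control, 1.24-fold (1.02 to 1.51). Of the pools, only that of the first gate thus had an equal Gbp2 level. In checkpoint-positive cells of the first gate Gbp2 had 27.9 CPM in DOPAC and 30.6 CPM in Control, a ratio of 0.912 (0.56 to 1.57). The Gbp2 interval in checkpoint-positive cells thus spanned equal levels under both gates. Within the subclasses of the second gate, the Gbp2 interval spanned equal levels in checkpoint-positive and cycling cells and not in naive and other cells.

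Among the other lymphocytes, regulatory T cells carried the highest sum. It was 1057 CPM in 26 DOPAC cells (878 to 1262) and 351 CPM in 28 Control cells (288 to 423). With the second gate it was 1117 CPM in DOPAC and 411 CPM in Control, 2.72-fold (2.3 to 3.2). Gbp7 and Gbp4 led in DOPAC regulatory T cells, where Gbp7 had 269 CPM, against 67.6 CPM in Control, and Gbp4 260 CPM, against 57.9 CPM in Control. T cells without a Cd8, Cd4, Foxp3 or Trdc call had 423 CPM in 687 DOPAC and 235 CPM in 260 Control cells, 1.8-fold (1.61 to 2.02), with 6 of 8 genes at least 1.5-fold higher and 0 lower, against 14.9% and 19%. CD4 T cells had 509 CPM in DOPAC and 297 CPM in Control, 1.71-fold (1.39 to 2.11), with 3 of 8 genes at least 1.5-fold higher (Gbp3, Gbp6 and Gbp7) and 0 lower, against 21.2% and 23.3%. NK cells did not differ beyond counting error, with 260 CPM in DOPAC and 217 CPM in Control, 1.2-fold (0.926 to 1.55). Of 5 genes counted in them 1, Gbp3, was at least 1.5-fold higher, against 12.9%, and 0 were lower, against 23.7%. NK cells with Itga2 RNA had 289 CPM in 32 DOPAC and 213 CPM in 84 Control cells, 1.35-fold (0.852 to 2.09). In them 3 of 3 genes counted were past 1.5-fold higher and 0 lower, against 15.4% and 30.6%, and each interval spanned equal levels, with Gbp4 at 2.02-fold (0.823 to 4.53), Gbp7 at 2.01-fold (0.709 to 5.04) and Gbp8 at 1.72-fold (0.49 to 4.98). In those without Itga2, Gzmc or Cxcr6 RNA 0 of 2 were higher, against 13.8%, and 1, Gbp8, was lower, against 22.5%, at a ratio of 0.529 (0.152 to 1.51). The second gate, which held 502 DOPAC and 564 Control NK cells, gave 323 CPM in DOPAC and 223 CPM in Control, 1.45-fold (1.29 to 1.62). Under it Gbp8 was 1.53-fold higher in DOPAC, against a ratio of 0.687 under the first gate. B cells had 564 CPM in 25 DOPAC cells (25 UMIs, 365 to 832) and 78 CPM in 609 Control cells, and plasmacytoid dendritic cells 257 CPM in 25 DOPAC cells and 132 CPM in 263 Control cells.

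With a stricter limit of 2-fold, 9 of the 9 genes were higher in DOPAC macrophages, against 6.71% of all genes, and 0 were lower, against 9.82%. In monocytes 4 of 9 were higher at this limit, against 9.07%, and 0 lower, against 5.69%. In conventional dendritic cells 7 of 9 were higher, against 5.76%, and 0 lower, against 9.36%. In pooled CD8 T cells 1 of 8, Gbp6, was higher, against 10.4%, and 0 were lower, against 11.4%, and in NK cells 0 of 5 were higher, against 4.17%, and 0 lower, against 10.3%. At 1.5-fold and with no minimum of UMIs, 4 genes were higher in CD8 T cells, against 32.6%, and 0 lower, against 27.7%, and in NK cells 2 were higher, against 22.6%, and 1 lower, against 37.1%. At 2-fold the members' share thus stood above that of all genes in macrophages, monocytes and conventional dendritic cells, and the counts in CD8 T and NK cells were 1 and 0.

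The make-up of the family split by lineage in both libraries. Since a UMI is counted once per captured transcript whatever its length, UMIs were not divided by length, and capture may differ by gene. Gbp2 was the leading member in every myeloid and conventional dendritic class with at least 20 cells except Control Arg1-high macrophages, where Gbp5 held 26.3% and Gbp2 20.4%. It held 41.3% of the members' UMIs in DOPAC and 46.5% in Control classical monocytes. In T, NK, B and plasmacytoid dendritic cells Gbp4, Gbp6, Gbp7 or Gbp9 led and Gbp2 held at most 15.4%. In checkpoint-positive CD8 T cells, for example, Gbp6 led with 23.7% in DOPAC and Gbp7 with 21.3% in Control, and Gbp2 held 7.85% in DOPAC and 12.7% in Control. Lymphoid cells thus did not carry the members in the proportion of macrophages of their own library. In plasmacytoid dendritic cells Gbp4 held 43.5% in DOPAC and 30.4% in Control, followed by the overlapping gene Gbp8. Across 37 sums of a class in a library, which share libraries and depth, Gbp2 and Gbp5 went together most closely (Pearson r = 0.93), followed by Gbp4 and Gbp8 (0.89), which overlap in the genome, as do Gbp4 and Gbp9 (0.63). Gbp5 and Gbp6 did so least, at 0.24.

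**Figure D4:**
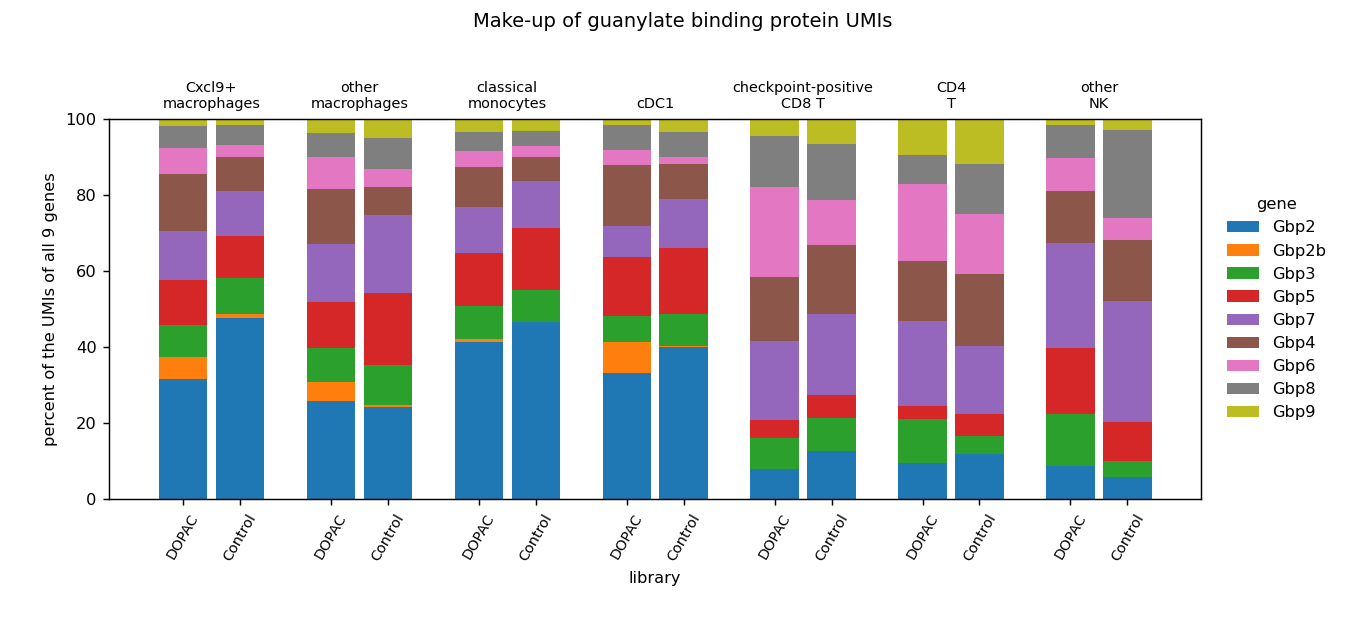
Percent of the UMIs of all 9 genes held by each gene, in 7 classes, with DOPAC left of Control. Gbp2 (blue, bottom) takes the largest part in the macrophage, monocyte and cDC1 bars and a small part in the T and NK bars, and Gbp2b (orange) is visible in DOPAC macrophages and cDC1.

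Cells with a UMI of any member were also more frequent in DOPAC once each cell was thinned to 1000 UMIs. The share in macrophages was 62.6% in DOPAC (58.1 to 67.1, 463 cells) against 20.7% in Control (18.4 to 23.2, 1182 cells), whereas without thinning the shares were 89.9% in DOPAC and 77.5% in Control at the median depths given above. For Gbp2 alone they were 30.5% in DOPAC and 7.45% in Control after thinning, and for Gbp2b 5.4% in DOPAC and 0.0846% in Control. Classical monocytes had 56.6% in DOPAC and 36.9% in Control, cDC1 23.5% in DOPAC and 8.11% in Control, and CD8 T cells 26% in DOPAC and 16.1% in Control. Cxcl9+ macrophages overlapped, with a share of 69.4% in DOPAC (62.8 to 75.5) and 59.1% in Control (49.3 to 68.4). No leukocyte class is known to lack these genes. The leukocyte class with the lowest share was Control B cells, with 6.58% after thinning to 1000 UMIs and a median of 4313.0 UMIs before it. NK cells, with 17.9% in DOPAC and 13.8% in Control, overlapped.

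**Figure D5:**
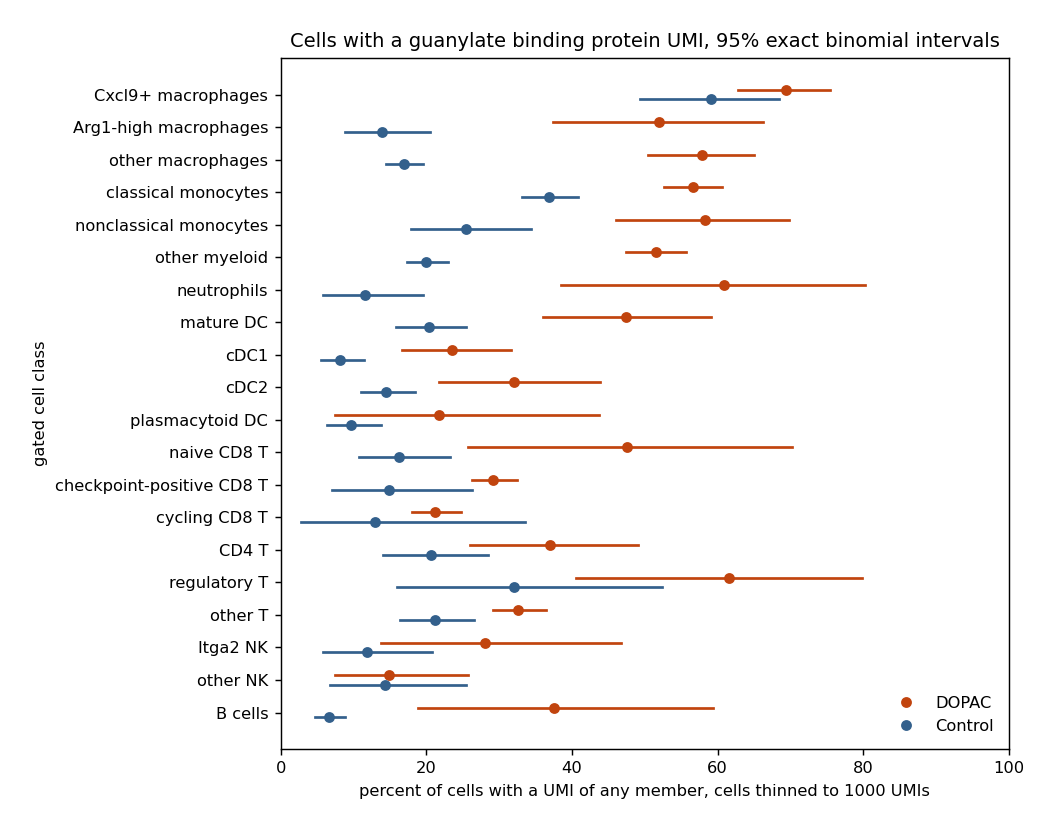
Percent of cells with at least 1 UMI of any of the 9 genes after thinning to 1000 UMIs, by class, with DOPAC (orange) above Control (blue) and exact binomial 95% intervals as lines. The DOPAC points lie right of the Control points in every class, and the intervals overlap in Cxcl9+ macrophages and in several lymphoid classes.

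Immunity-related GTPases are the other large family of interferon-induced GTPases. All 8 found were at least 1.5-fold higher in DOPAC macrophages, against 14% of all genes, with a median log2 ratio of 2.49, against -0.04 over all genes. Iigp1 had 196 CPM in DOPAC and 14.6 CPM in Control macrophages, 13.4-fold (11.7 to 15.5). Irgm1, a regulator of the family, had 122 CPM in DOPAC and 21.2 CPM in Control, 5.74-fold (4.97 to 6.62). In monocytes and in conventional dendritic cells 8 of 8 were also at least 1.5-fold higher, against 19% and 14.7%, with median log2 ratios of 2.13 and 2.45. In pooled CD8 T cells 0 of 7 were higher, against 19.7%, and 1, Tgtp1, was lower, against 22.4%, with a median log2 ratio of -0.09, against -0.08 over all genes. In checkpoint-positive CD8 T cells 1 of 6, Irgm2, was higher, against 18.7%, and 0 were lower, against 20.7%.

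The interferon gamma pathway is given from ligand to factors. Ifng had 205 CPM in DOPAC and 84.4 CPM in Control CD8 T cells, 2.44-fold (2.09 to 2.85), and 178 CPM in DOPAC and 180 CPM in Control NK cells. In macrophages Ifngr1, a receptor chain, had 101 CPM in DOPAC and 112 CPM in Control. Irf1, the interferon regulatory factor named above, had 211 CPM in DOPAC and 109 CPM in Control macrophages, 1.94-fold (1.77 to 2.12). Of the 14 pathway genes 8 were at least 1.5-fold higher in macrophages, against 14% of all genes, and 1, Socs3, was lower, against 21.3%. The 8 included Ifng, and Cd3e had a UMI in 18% of DOPAC and 6.23% of Control macrophages. The part of T-cell RNA in this count was not tested. In pooled CD8 T cells, which were mostly naive in Control and mostly checkpoint-positive or cycling in DOPAC, 3 were higher and 6 lower, against 19.7% and 22.4% of all genes. In checkpoint-positive CD8 T cells, of 12 genes counted, Ifng and Nlrc5 were higher, against 18.7%, and Jak2, Socs1 and Socs3 lower, against 20.7%. Ifng had 187 CPM in DOPAC and 88.6 CPM in Control checkpoint-positive cells, 2.11-fold (1.61 to 2.83), and Irf1 115 CPM in DOPAC and 142 CPM in Control, a ratio of 0.808 (0.644 to 1.03).

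Genes of the type I interferon response were at least 1.5-fold higher in 10 of 12 cases in macrophages, against 14% of all genes, and 4 of 12 in monocytes, against 19%. In Cxcl9+ macrophages, where Gbp2 was level, 4 of 12 were higher, against 13%, with a median log2 ratio of 0.13, and 8 of 8 immunity-related GTPases were higher with a median of 1.42, against -0.01 over all genes. Interferon gamma-induced chemokine and presentation genes were higher in 8 of 12 cases in macrophages, again against 14%, such as B2m, the light chain of class I molecules, with 5131 CPM in DOPAC and 2088 CPM in Control. Inflammasome genes, with which the proteins act, were higher in 2 of 8 cases in macrophages, Casp1 and Casp4, and lower in 0, against 14% and 21.3%. Casp4, the sensor of lipopolysaccharide in the cytosol, had 299 CPM in DOPAC and 127 CPM in Control. Ubiquitin-like conjugation genes, which guide the proteins to vacuoles, were higher in 0 of 8 cases in macrophages and lower in 0, against 14% and 21.3%.

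The genes most alike in pattern to the summed members, by Pearson r of log2(CPM + 10) over the same 37 sums and among 7718 genes, were Zbp1 (0.89), Ifi47 (0.87), Xaf1 (0.84), B2m (0.84), Batf2 (0.83), Rnf213 (0.83), Herc6 (0.83), Ly6i (0.83), Slfn8 (0.82) and Dtx3l (0.81). Zbp1 is a sensor of Z-form nucleic acid and Ifi47 an immunity-related GTPase. Cxcl9 reached 0.56, Irf1 0.48 and Ifng, which is expressed in other cells, 0.03.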

How the data were processed

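The deposited matrices hold raw UMI counts per gene and barcode, which the authors made with Cell Ranger, version 7.0.1 per the file headers. The genome was GRCm38 per the submitters' processing notes; annotation and settings are not given in the sources used here. Cells with at least 500 UMIs, 200 genes and at most 10% mitochondrial UMIs were kept. Doublets were scored with Scrublet (scanpy 1.11.5): the automatic threshold removed 339 Control cells (4.01%), and because it marked 0% of the DOPAC cells, the 815 highest scores (8.07%) were removed there. The DOPAC library held 47769958 UMIs and the Control library 100938364.

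A cell was given the lineage whose marker panel held at least 75% of its panel UMIs. UMIs were summed per class and library and divided by the class total (CPM), with exact Poisson intervals; folds have exact conditional binomial intervals and shares exact Clopper-Pearson intervals, all at 95% and for counting error only. Levels need 20 cells, comparisons 30 cells in both libraries. Log2 ratios add 1 count to each sum. A gene counted as higher or lower at 1.5-fold with at least 20 UMIs in both sums together, and a count of 0 allows up to 3 counts. No test was possible with 1 library per group. The script was tested on simulated data.

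Named were all 9 members, of each list the genes with the most UMIs or past 1.5-fold, and the 10 genes most alike. The members and lists were chosen with earlier results of these data known. One gene of the interferon gamma pathway list is not reported here and was left out of its counts. Alternatives were another scaling, doublets kept, at most 5% mitochondrial UMIs, a panel share of 90%, thinning to 1000 UMIs, the mean of cells, a minimum of 1000 UMIs, 2-fold, no low-count filter, and a second gate chosen after seeing the data. In the first gate Ly6c2 and Ccr2, which T and NK cells also transcribe, were in the myeloid panel, so many T and NK cells were mixed; the second left them out.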

Additional observations from a re-analysis of the deposited data

Results flagged for a closer look

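Cells outside every comparison also carried the members' transcripts. Cells with no lineage, whose panel UMIs were too few, had 574 CPM of the summed members in DOPAC (554 to 595, 2190 cells) and 215 CPM in Control (197 to 234, 526 cells). Cells with mixed lineages had 488 CPM in DOPAC (476 to 501, 2371 cells) and 256 CPM in Control (248 to 263, 1920 cells). Both were singled out because the signal lies in cells that the comparisons do not use and is above the level in Control. Their median depth was 2093.5 UMIs in DOPAC and 3911.5 UMIs in Control without a lineage, and 3932.0 UMIs in DOPAC and 7365.5 UMIs in Control with mixed lineages.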

How the results depend on the processing

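The summed log2 ratio was positive under all 40 alternatives tried in the 5 groups, and 31 of them moved it by less than its counting interval. The other 9 did more. Thinning cells to 1000 UMIs before gating gave 2.47 in macrophages, 0.62 in monocytes, 0.54 in conventional dendritic cells, 0.97 in CD8 T cells and 0.65 in NK cells, against 2.12, 0.92, 1.44, 0.55 and 0.27. The mean of the cells' own CPM gave 2.02 in macrophages. Monocytes gave 0.86 when centred on the median gene, 0.99 with a panel share of 90% and 1.14 with the second gate, which was chosen after seeing the data. The cause was not tested, and thinning leaves fewer cells. Among the members called higher or lower, 206 of 207 alternatives had the same sign, the exception being Gbp5 in thinned monocytes at -0.20. At 2-fold, 9 members were higher in macrophages, against 6.71% of all genes, 4 in monocytes, against 9.07%, 7 in conventional dendritic cells, against 5.76%, 1 in CD8 T cells, against 10.4%, and 0 in NK cells, against 4.17%, and none was lower in any of the 5. Without the low-count filter, 4 were higher in CD8 T cells, against 32.6%, and in NK cells 2 were higher, against 22.6%, and 1 lower, against 37.1%. No paired analysis was possible because each group is 1 library, and no replicate could be left out. Depth limits Gbp2b in lymphoid and dendritic classes with few UMIs, such as DOPAC cDC2, where 0 UMIs allow up to 7.36 CPM. It also limits every member in DOPAC B cells and neutrophils. In deeper classes Gbp2b was measured as low, with 0.559 CPM (6 UMIs) in DOPAC CD8 T cells. In Control cDC2, 0 UMIs allow up to 0.5 CPM.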
